A study of Homo sapiens with 39 samples.

Results

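ADGRF1, SLC14A1, FDCSP and A2M are 4 of the 60671 genes in the deposited table of A375 and WM115, a pair of established human melanoma lines. They were chosen by their levels in A375, where the first 2 rose and the last 2 fell strongly in both clones that lack the region called R1. Values in those clones are therefore a description, and tests were run only in WM115 and between sister clones. The 39 libraries form 11 groups. A375 was sampled as wild-type cells (WT, 4 libraries), as R1 deletion clones 1.1 (3) and 1.2 (4), and as R4 deletion clones 4.1 (4) and 4.2 (3). WM115 was sampled as WT (4), R1 deletion clones 1.1 (5) and 1.2 (3), R4 deletion clones 4.1 (3) and 4.2 (3), and clone 1.3 (3), for which the title points to R1 and the genotype label to R4. R1 and R4 belong, per the series, to enhancer sequence of SOX10. The labels name no treatment, and they do not say how many alleles were lost or whether libraries of 1 clone came from separate cultures, so p-values measure only the spread between libraries. Clone numbers do not match clones across the lines.

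ADGRF1 encodes an adhesion G protein-coupled receptor, a class of surface receptors with a long extracellular part. SLC14A1 encodes the urea transporter UT-B, which carries the Kidd blood group antigens on red cells. FDCSP encodes a small secreted peptide first described in follicular dendritic cells, and A2M encodes alpha-2-macroglobulin, a secreted inhibitor that traps proteases. SOX10 is a transcription factor that neural crest, melanocytes and many melanomas depend on.

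By GENCODE 29 (GRCh38), ADGRF1 (ENSG00000153292) lies on the minus strand of chromosome 6 from 46997703 to 47042363, and SLC14A1 (ENSG00000141469) on the plus strand of chromosome 18 from 45687025 to 45752520. FDCSP (ENSG00000181617) lies on the plus strand of chromosome 4 from 70226071 to 70235252, and A2M (ENSG00000175899) on the minus strand of chromosome 12 from 9067664 to 9116229. All 4 are protein-coding and on different chromosomes. RefSeq promoters (GRCh38.p14, 250 bases before to 50 after a start) were at hand for 2 of the 4. The ADGRF1 promoter (chr6:47042283-47042582, minus strand) is printed, and of those of SLC14A1 the promoter that holds the TEAD motif (chr18:45723931-45724230, plus strand). Both run 5′ to 3′, with capitals marking the TEAD motif GGAATG or its reverse complement CATTCC.
ADGRF1: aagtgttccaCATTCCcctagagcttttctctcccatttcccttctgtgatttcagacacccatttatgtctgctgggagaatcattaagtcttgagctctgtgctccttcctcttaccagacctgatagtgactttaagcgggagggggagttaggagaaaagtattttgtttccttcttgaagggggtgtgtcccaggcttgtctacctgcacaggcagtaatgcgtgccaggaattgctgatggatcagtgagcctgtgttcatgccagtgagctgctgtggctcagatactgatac
SLC14A1: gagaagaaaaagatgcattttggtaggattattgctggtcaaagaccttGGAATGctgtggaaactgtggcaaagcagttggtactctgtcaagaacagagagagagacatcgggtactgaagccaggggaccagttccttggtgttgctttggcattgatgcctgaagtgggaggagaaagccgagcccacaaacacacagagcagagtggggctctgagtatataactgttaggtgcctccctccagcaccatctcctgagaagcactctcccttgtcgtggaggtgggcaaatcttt
The motif begins 240 bases before the annotated start in ADGRF1 and 201 bases before it in SLC14A1, and 14.03% of the 35116 promoters in the RefSeq table hold it on either strand. Another SLC14A1 promoter (chr18:45726703-45727002, plus strand) does not hold the TEAD motif. It holds ACAAAG, a SOX core motif present in 16.1% of promoters. ACAATG, the MITF E-boxes CACGTG and CATGTG, the AP-1 motif TGANTCA and TATAAA, searched on both strands, were not matched in these windows. No match overlapped another.

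TPM, the unit of all levels, corrects for transcript length and so permits comparison between genes. Read counts were not used here, so depth is unknown. In A375, 14128 to 16140 genes per library reached 1 TPM, and in WM115 14084 to 15528. Transcripts of the mitochondrial genome made up 0.968% to 4.92% of TPM in A375 libraries and 4.71% to 19.4% of TPM in those of WM115, where all 4 WT libraries were above 7.5% but only 1 of 3 of clone 4.1 and 2 of 3 of clone 4.2. Mean SOX10 was 682 ± 35.6 TPM (SD, n = 4) in A375 WT, 513 ± 144 (n = 3) in clone 1.1, 443 ± 27.8 (n = 4) in clone 1.2, 777 ± 71.1 (n = 4) in clone 4.1 and 559 ± 80.9 (n = 3) in clone 4.2. In WM115 it was 507 ± 48.3 TPM (n = 4) in WT and between 405 and 439 in every clone but 1.2, which averaged 187 ± 153 (n = 3) with 9.56 in its replicate 3. That library also stood apart in its summed level of 9 melanocyte and melanoma markers, 42.8 TPM, but not in ADGRF1, SLC14A1 or FDCSP. Without it SOX10 averaged 275 TPM in clone 1.2 (n = 2). Results of clone 1.2 that lost a call without it are given both ways.

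Against the labelled cell type, SOX10, MITF, S100B and S100A1 were present in A375, but MLANA, TYR, DCT and TYRP1 of the 9 melanocyte markers stayed under 1 TPM in all of its groups. The summed markers ranged from 981 to 1693 TPM in A375 WT, 453 to 1351 in clone 1.1, 542 to 698 in clone 1.2, 1528 to 2105 in clone 4.1 and 659 to 1411 in clone 4.2. In WM115 the range was 1463 to 3391 TPM in WT, 1614 to 2330 in clone 1.1 and 1192 to 2089 in clone 1.3. It was 42.8 to 1239 in clone 1.2, 1007 to 1358 in clone 4.1 and 1439 to 1764 in clone 4.2. From WT to clones 4.1 and 4.2, median MITF went from 143.9 to 11.1 and 15.8 TPM and DCT from 732.9 to 7.08 and 3.89. Medians of TYRP1, MLANA, TYR and PMEL were lower too, and that of SOX10 less so (512.6, 389.6 and 438.1). S100B was higher (320.6, 652.5 and 460.2), and S100A1 lower in clone 4.1 but higher in clone 4.2. Fewer cells of a type and less RNA per cell cannot be told apart in bulk libraries.

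ADGRF1 was the gene that rose furthest in A375, ranked by the smaller of the differences in the R1 clones. WT libraries 1 to 4 had 0.884, 0.170, 0.619 and 4.80 TPM. Clone 1.1 had 5.63, 18.2 and 28.0 TPM, and clone 1.2 had 9.21, 15.5, 12.0 and 14.2. All 7 R1 libraries lay above the highest WT library, with means of 17.3 ± 11.2 (SD, n = 3) and 12.7 ± 2.75 (n = 4) against 1.62 ± 2.14 (n = 4). On the log2(TPM + 1) scale, which understates changes of low genes, clone 1.1 exceeded WT by 2.86 (SE 0.62) and clone 1.2 by 2.66 (SE 0.57).

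The R4 clones of A375 split for ADGRF1. Clone 4.1 overlapped WT, with 0.984, 0.368, 1.27 and 6.17 TPM, a log2 difference of 0.27 (SE 0.57). Replicate numbers pair these groups, and within pairs ADGRF1 was higher in clone 4.1 in 4 of 4, by the same 0.27 with an SE of 0.13 when the number was a block. Clone 4.2 had 4.01, 16.7 and 11.8 TPM, of which 2 of 3 libraries exceeded every WT library, and a log2 difference of 2.29 (SE 0.62). These clones share the WT libraries of the R1 comparison, so their differences from WT carry no test. Set against each other directly, clone 4.1 was lower than clone 4.2 by a log2 value that did not pass the test (-2.02, SE 0.62, limma adjusted p = 0.0786). Without replicate 4 of clone 4.1 it was -2.51 and was called (adjusted p = 0.0229), and without replicate 1 of clone 4.2 it was -2.55 (adjusted p = 0.0355).

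**Figure D1:**
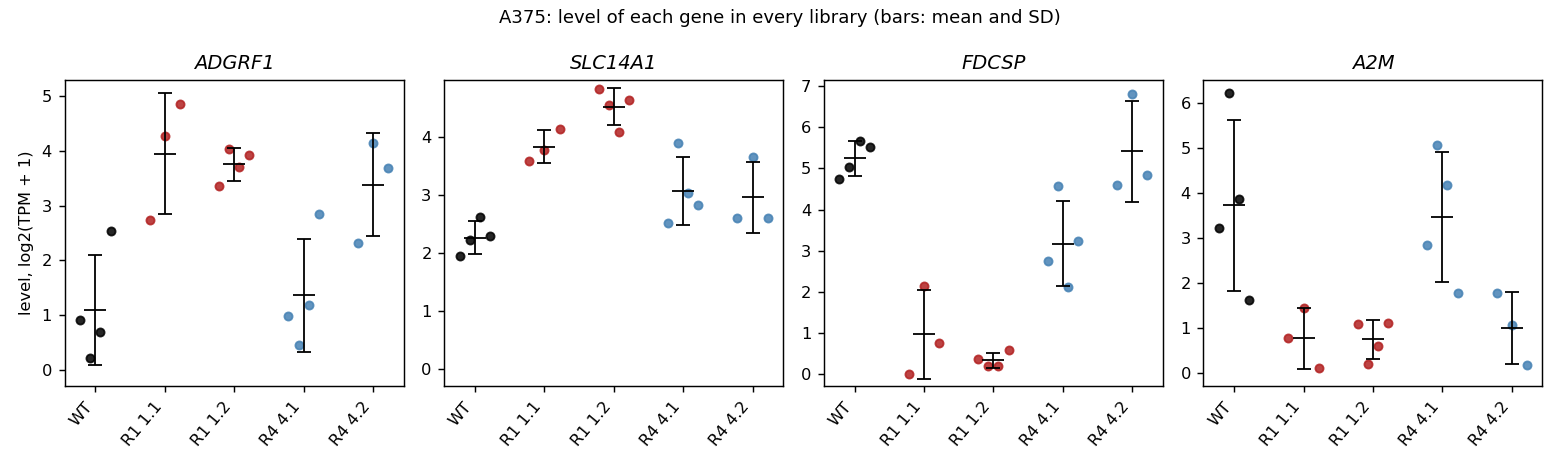
Each point is 1 A375 library, the vertical axis is log2(TPM + 1), and bars give the mean and SD of a group; black is WT, red R1 clones and blue R4 clones. ADGRF1 and SLC14A1 are above every WT library in all 7 R1 libraries and FDCSP and A2M below. Clones 4.1 and 4.2 part in mean for ADGRF1, FDCSP and A2M, but their libraries overlap for ADGRF1 and A2M.

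SLC14A1 moved in the same direction with less spread. A375 WT had 2.83, 3.65, 5.12 and 3.87 TPM. Clone 1.1 had 10.99, 12.6 and 16.6 TPM, and clone 1.2 had 27.3, 22.5, 15.8 and 23.7. Every R1 library was above every WT library, by a log2 difference of 1.57 (SE 0.31) in clone 1.1 and 2.26 (SE 0.29) in clone 1.2. Intermediate values were found in clone 4.1, with 4.73, 13.8, 7.14 and 6.04 TPM, and in clone 4.2, with 5.10, 11.6 and 5.06. Both overlapped WT, and their log2 differences were 0.80 (SE 0.29) and 0.69 (SE 0.31). Within pairs clone 4.1 exceeded WT in 4 of 4, with an SE of 0.22 when the replicate number was a block. The direct difference between clones 4.1 and 4.2 was 0.11 (SE 0.31, limma adjusted p = 0.848).

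FDCSP had the deepest fall. A375 WT had 25.7, 32.0, 49.5 and 45.0 TPM. Clone 1.1 had 0, 3.41 and 0.677 TPM, with 1 library listed at 0, and clone 1.2 had 0.280, 0.144, 0.147 and 0.493. WT averaged 38.1 ± 11.1 TPM (SD, n = 4), against 1.36 ± 1.81 (n = 3) and 0.266 ± 0.164 (n = 4), so that the R1 groups fell far below WT without overlap. The log2 differences were -4.28 (SE 0.58) and -4.91 (SE 0.53).

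R4 clone 4.1 was also below WT for FDCSP, with 5.72, 22.8, 3.37 and 8.37 TPM and a log2 difference of -2.07 (SE 0.53). It was lower in 4 of 4 pairs (SE 0.42 with the replicate block). Clone 4.2 was not, with 23.0, 111 and 27.7 TPM and a difference of 0.17 (SE 0.58). The sister clones differed by -2.24 (SE 0.58, 4.1 minus 4.2, limma adjusted p = 0.0388), the only one of the 4 genes called between them. For all genes, 2.23% were called in that comparison, a share that became 0.758% without replicate 3 of clone 4.2 and 4.18% without its replicate 1. The FDCSP call was lost with 4 of 7 left-out libraries, namely replicates 1 (adjusted p = 0.0988) and 3 (0.120) of clone 4.1 and replicates 2 (0.216) and 3 (0.0872) of clone 4.2.

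A2M varied most among WT libraries, with 8.37, 73.4, 13.5 and 2.10 TPM. Clone 1.1 had 0.703, 1.72 and 0.070 TPM, and clone 1.2 had 1.11, 0.145, 0.507 and 1.17. All 7 were below the lowest WT library, which at 2.10 TPM was close to the highest of them. The log2 differences were -2.96 (SE 0.84) and -2.99 (SE 0.78). Clone 4.1 lay within the WT range, with 6.22, 32.8, 17.1 and 2.41 TPM and a difference of -0.27 (SE 0.78). It was higher in 2 of 4 pairs (SE 0.23 with the replicate block). Clone 4.2 was low, with 2.44, 1.09 and 0.131 TPM and a difference of -2.73 (SE 0.84). Between clones 4.1 and 4.2 the A2M difference of 2.46 did not pass the test (SE 0.84, adjusted p = 0.111), although without replicate 4 of clone 4.1 it was 3.03 and called (adjusted p = 0.0444).

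In all, 4 of 4 genes differed from WT by at least 1 on the log2 scale in each R1 clone, which the choice of genes fixed, 1 of 4 (FDCSP) in clone 4.1 and 2 of 4 (ADGRF1 and A2M) in clone 4.2. Of all 16692 tested genes, 2.57%, 5.65%, 1.67% and 2.38% differed by that size in clones 1.1, 1.2, 4.1 and 4.2. With an adjusted p under 0.05 as well, the calls took 0.731% in clone 1.1, 4.01% in clone 1.2, 0.653% in clone 4.1 and 0.473% in clone 4.2. In clone 4.1, which pairs with WT, these were 109 genes, and 242 were called with the replicate block. Leaving out 1 library moved the share to 0.337% (without replicate 2) or 1.34% (without replicate 1) in clone 1.1 and to 0.295% in clone 4.2 (without replicate 3). Ranked by the smaller of the differences in both R1 clones, SCG5, C19orf33 and 5_8S_rRNA stood between ADGRF1 and SLC14A1, with 1.92, 1.62 and 1.61 against 1.57. Among falling genes FDCSP was first, RXRG came next with -3.50, and A2M was at rank 3.

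**Figure D2:**
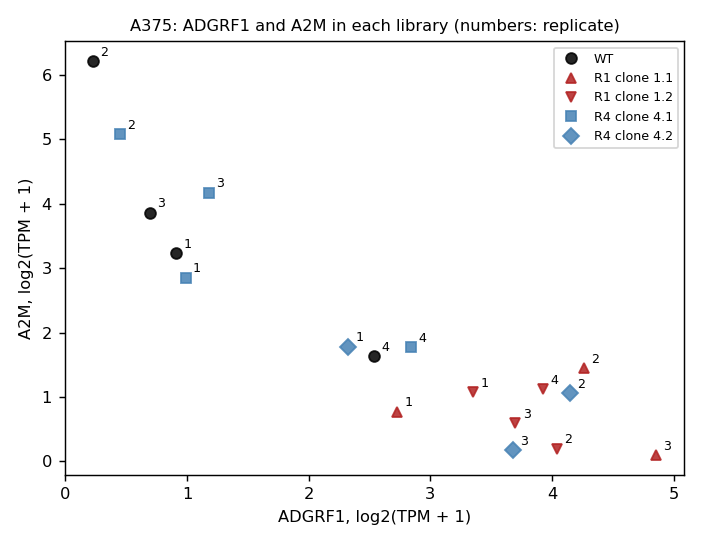
Points are the 18 A375 libraries, with ADGRF1 on the horizontal and A2M on the vertical axis, both as log2(TPM + 1), and the digits are replicate numbers. WT replicate 2 (0.170 and 73.4 TPM) and clone 1.1 replicate 3 (28.0 and 0.070 TPM) are at opposite ends, and WT replicate 4 lies away from the other WT libraries.

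Within A375 WT and clone 4.1, too, libraries high in ADGRF1 tended to be low in A2M. WT replicate 4 had the highest ADGRF1 (4.80 TPM) and the lowest A2M (2.10 TPM) of WT, and replicate 2 the lowest ADGRF1 (0.170) and the highest A2M (73.4). Clone 4.1, whose replicate numbers pair with those of WT, had the same extremes, with ADGRF1 highest and A2M lowest in replicate 4 and ADGRF1 lowest and A2M highest in replicate 2. In R1 clones 1.1 and 1.2 the library highest in ADGRF1 was likewise the lowest in A2M. The library lowest in ADGRF1, however, was not the highest in A2M in either clone. In clone 4.2 the library lowest in ADGRF1 was the highest in A2M, but the highest in ADGRF1 was not the lowest in A2M. A2M reached at most 1.72 TPM in the R1 clones, so their order rests on low values. In the plot of the 2 genes, Pearson's r over the 18 libraries was -0.91, a description in which the choice of genes plays a part. Over the 21 WM115 libraries it was -0.02. SLC14A1 and FDCSP had r = -0.70 in A375 and 0.47 in WM115.

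KRT14, a basal keratin among 4 epithelial markers, was found at 0.911 to 26.4 TPM in A375 WT, 4.48 to 18.8 in clone 1.1, 13.2 to 29.4 in clone 1.2, 0.062 to 7.49 in clone 4.1 and 11.4 to 30.4 in clone 4.2. In WM115 its highest level was 0.963 TPM outside the R4 clones, where it ranged from 1.92 to 3.65 in clone 4.1 and from 1.36 to 2.56 in clone 4.2. Summed, the 4 epithelial markers spanned 1.18 to 26.5 TPM in A375 WT and 4.92 to 19.1 in clone 1.1. These sums overlapped. The sums spanned 13.9 to 30.4 TPM in clone 1.2, 0.097 to 7.82 in clone 4.1 and 12.2 to 30.6 in clone 4.2. KRT5, KRT19 and EPCAM, the other 3 of 4, were under 1 TPM in every A375 library and in every WM115 library. Of the 5 follicular dendritic cell markers, CR2, FCER2 and CXCL13 were under 1 TPM in all 11 groups. VCAM1 reached 1.02 TPM, in WM115 clone 4.1, and MFGE8 ranged from 13.7 to 188 TPM in A375 and from 96.0 to 198 in WM115. Of the 3 hepatocyte markers, ALB and APOA1 were under 1 TPM in all groups, and SERPINA1 ranged from 2.77 to 17.3 TPM in A375 and up to 1.90 in WM115. The 6 haematopoietic markers were under 1 TPM in all groups. The 5 fibroblast markers summed to 4.29 to 20.8 TPM in A375 and 372 to 863 TPM in WM115, where COL1A2 alone gave 365 to 857 and each of the others at most 26.4, and the 4 endothelial markers to 0.423 to 2.88 TPM and 2.24 to 16.3 TPM. The part of any of these markers in the differences was not tested.

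WM115 started from other levels. ADGRF1 was nearly absent from WT, at 0.388, 0.190, 0.792 and 0.114 TPM. R1 clone 1.1 had 0, 0.165, 0.111, 0.015 and 0.045 TPM, and clone 1.2 had 1.13, 0.325 and 0.667. These R1 clones overlapped WT, and neither difference passed the test (-0.34, SE 0.36, limma adjusted p = 0.540, and 0.31, SE 0.41, adjusted p = 0.617).

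Both R4 clones of WM115 had high ADGRF1. Clone 4.1 had 8.14, 19.8 and 6.13 TPM, and clone 4.2 had 14.3, 5.83 and 2.85, all above the highest WT library. The log2 differences were 3.04 (SE 0.41, limma adjusted p = 6.73e-05) and 2.45 (SE 0.41, adjusted p = 0.000720). Some of these libraries had a high mitochondrial share, and with a term for high or low share, cut at 7.5%, both calls held. Clone 1.3 had 2.70, 1.53 and 0.222 TPM, a difference of 0.74 (SE 0.41, adjusted p = 0.464).

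SLC14A1 was already at 23.0, 23.3, 33.1 and 13.6 TPM in WM115 WT. R1 clone 1.2 had 116, 92.0 and 105 TPM, clone 4.1 had 116, 141 and 101, and clone 4.2 had 90.1, 84.4 and 107. Each of these 9 libraries exceeded every WT library. The log2 differences were 2.17 (SE 0.35, limma adjusted p = 0.000549), 2.36 (SE 0.35, adjusted p = 0.000144) and 2.02 (SE 0.35, adjusted p = 0.000823).

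R1 clone 1.1 of WM115 went the other way for SLC14A1, with 10.1, 10.9, 16.2, 12.8 and 5.75 TPM, and 4 of its 5 libraries were under all of WT. Its difference of -0.998 (SE 0.31, adjusted p = 0.0254) was just short of the size a call needs. The R1 sister clones 1.1 and 1.2 differed by -3.17 (SE 0.33, adjusted p = 2.68e-06). Clone 1.3 had 72.0, 133 and 35.8 TPM and a difference of 1.61 (SE 0.35, adjusted p = 0.0267) that was lost without replicate 1 of clone 1.3 (adjusted p = 0.111) or without replicate 2 (0.203), and without WT replicates 1 (0.0639), 2 (0.0657) or 4 (0.0865).

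FDCSP was listed at 0 in 3 of 4 WM115 WT libraries and at 0.330 TPM in the other. It was at 0 in all 8 libraries of R1 clones 1.1 and 1.2, and at 0, 0 and 0.163 TPM in clone 1.3. Clone 4.1 had 61.7, 159 and 123 TPM, and clone 4.2 had 1.69, 0.989 and 1.01. The R4 clones were thus above all other WM115 libraries, by a log2 difference from WT of 6.65 (SE 0.22, limma adjusted p = 3.07e-13) in clone 4.1 and of 1.04 (SE 0.22, adjusted p = 0.00388) in clone 4.2. FDCSP was tested in WM115 only because R4 libraries reached 1 TPM, so both p-values are descriptions. The SE is shared by all WM115 groups, including those at or near 0.

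Clones 4.1 and 4.2 differed from each other by 5.61 for FDCSP (SE 0.24, adjusted p = 2.30e-11). FDCSP passed the filter of 1 TPM in 3 libraries through the R4 clones alone. A difference was thus built into its passing, and this p-value, too, is a description. Without a filter the calls in clones 4.1 and 4.2 were the same. In clone 4.2 the FDCSP value was 0.90 without replicate 1, under the size a call needs. R4 clone 4.1 of A375 was below its WT in all 4 libraries, while R4 clone 4.1 of WM115 was above its WT in all 3.

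A2M was abundant in WM115, at 382, 392.2, 235 and 302 TPM in WT. R1 clone 1.1 had 114, 154, 88.8, 110 and 138 TPM, and clone 1.2 had 72.1, 143 and 13.4. Both were below the lowest WT library throughout. Clone 1.2 was called lower (-2.60, SE 0.63, limma adjusted p = 0.00834), and clone 1.1 was not (-1.43, SE 0.55, adjusted p = 0.0699). Without replicate 3, the library that stood apart, the value of clone 1.2 was -1.65 and not called (adjusted p = 0.0827).

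R4 clones 4.1, at 225, 207 and 205 TPM, and 4.2, at 137, 101 and 77.4 TPM, were also below all WT libraries of WM115. Their differences were -0.60 (SE 0.63, adjusted p = 0.523) and -1.64 (SE 0.63, adjusted p = 0.0699). In clone 1.3 the values spread from 88.9 and 160 to 822 TPM, with a difference of -0.50 (SE 0.63, adjusted p = 0.789). The test shares 1 error over all WM115 groups. With only WT and the clone compared, clones 1.1 and 4.2 were called at adjusted p = 0.00101 and 0.00645. In the same setting clone 1.2 lost its call (adjusted p = 0.0561).

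**Figure D3:**
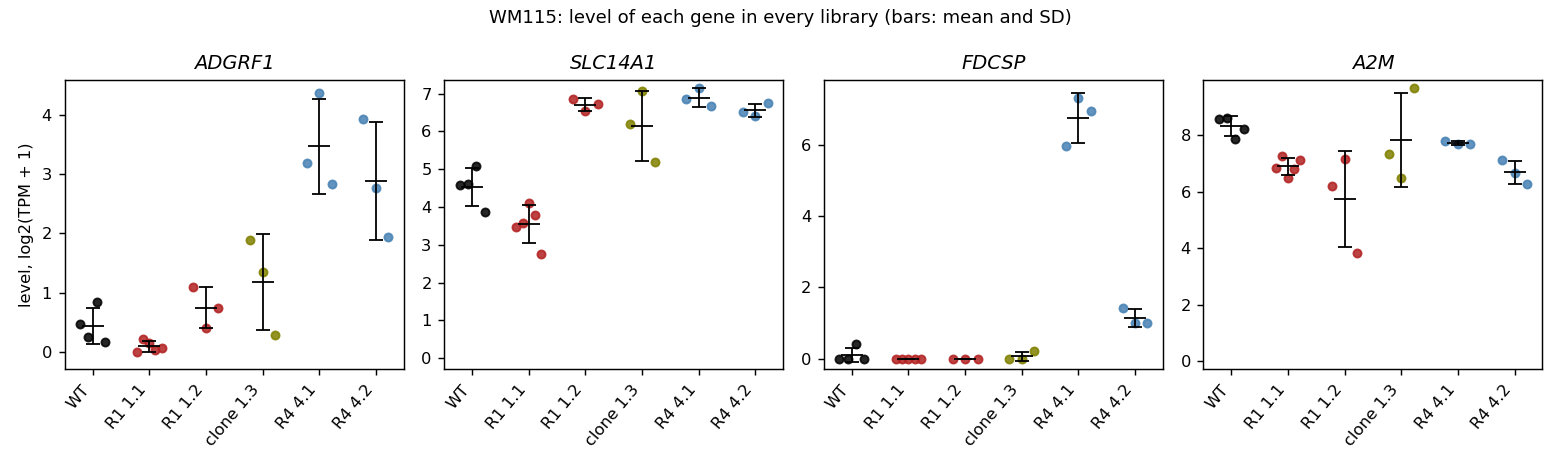
Each point is 1 WM115 library on log2(TPM + 1), with group means and SD as bars; black is WT, red R1 clones, blue R4 clones and olive clone 1.3. ADGRF1 and FDCSP are above every WT library in both R4 clones, and SLC14A1 in clones 1.2, 1.3, 4.1 and 4.2, while A2M is below WT in all libraries of clones 1.1, 1.2, 4.1 and 4.2.

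Of the 4 genes, 0 were called in WM115 clone 1.1, where 4.88% of 16997 tested genes were called, 2 in clone 1.2 (7.61%), 1 in clone 1.3 (0.618%), 3 in clone 4.1 (7.57%) and 3 in clone 4.2 (6.60%). The share was 2.98% in clone 1.2 without its replicate 3 and 1.90% in clone 1.3 without its replicate 3. Between sister clones, 1 of 4 was called in 1.1 against 1.2, where 11.8% of all genes were (7.22% without replicate 3 of clone 1.2), and 1 of 4 in 4.1 against 4.2, where 2.63% were (1.73% without replicate 1 of clone 4.1). FDCSP, which only the R4 clones brought past the filter, is among the 3 of clones 4.1 and 4.2 and is the 1 between them. Counted over clones, 2 R1 clones against 2 R4 clones cannot give an exact two-sided p below 0.333, so no region was tested against the other.

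**Figure D4:**
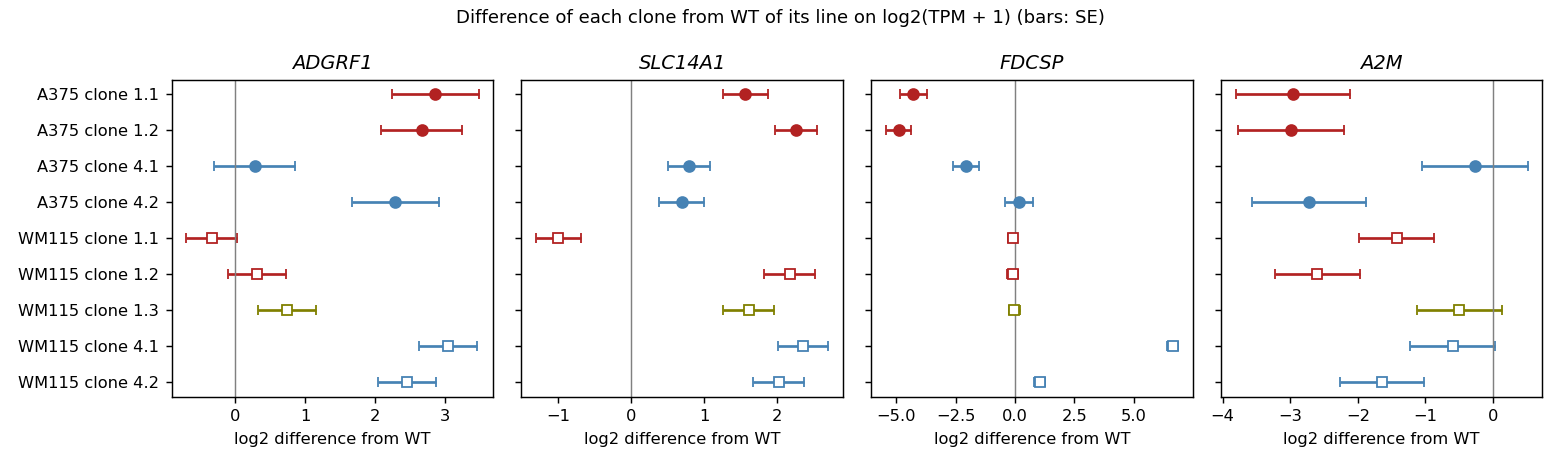
Points are the fitted differences of each clone from WT of its line on log2(TPM + 1), with SE bars, filled circles for A375 and open squares for WM115; red is R1, blue R4 and olive clone 1.3. SLC14A1 is at -0.998 in WM115 clone 1.1 and at 1.57 and 2.26 in the A375 R1 clones, while FDCSP is at -4.91 in A375 clone 1.2 and at 6.65 in WM115 clone 4.1.

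Ordered by mean level, ADGRF1 ran from 17.3 TPM in A375 clone 1.1 to 0.0672 in WM115 clone 1.1, and each group overlapped the next. SLC14A1 ran from 119 TPM in WM115 clone 4.1 to 3.87 in A375 WT, and the only neighbours that did not overlap were WM115 clone 1.3 (80.1) and WM115 WT (23.3). For FDCSP, WM115 clone 4.1 (115), A375 clone 4.2 (53.9) and A375 WT (38.1) formed the top and overlapped in turn, and A375 clone 4.1 (10.1) came next without overlap. For A2M, WM115 WT (328), clone 4.1 (212) and clone 1.1 (121) were apart from one another, and all A375 groups were lower in mean than all WM115 groups.

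At the transcript level, ADGRF1-201 made up 38.7% of the gene's TPM in A375 WT and 35.2% and 40.2% in the R1 clones. SLC14A1-201 was the most abundant of 20 listed transcripts in A375 WT, at 30.5%, and held 21.2% and 22.1% in the R1 clones. A2M-201 held 90.1% in A375 WT and 57.8% and 54.3% in the R1 clones, where the gene was under 2 TPM, and 88.6% to 90.6% in all WM115 groups. FDCSP has 1 transcript in the table. The antisense gene A2M-AS1 overlaps A2M and reached at most 1.07 TPM, and whether counting used strand is not given in the sources used here.

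Of the 10 nearest tested genes around each member, TNFRSF21, a death receptor gene 189 kb from ADGRF1, and PLA2G7, a lipoprotein-associated phospholipase gene 262 kb away, recurred. In A375, TNFRSF21 had 43.7 ± 13.0 TPM (SD, n = 4) in WT, 110 ± 6.46 (n = 3) in clone 1.1 and 105 ± 22.6 (n = 4) in clone 1.2, and PLA2G7 had 1.55 ± 1.18, 8.03 ± 2.29 and 3.66 ± 0.695. WM115 WT had 43.1 ± 8.32 TPM of TNFRSF21. It was called higher there in clone 1.2 (1.91, limma adjusted p = 0.00275), clone 4.1 (1.78, adjusted p = 0.00279) and clone 4.2 (2.11, adjusted p = 0.00117).

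PLA2G7 was called higher in the same 3 WM115 clones, by 1.39 (adjusted p = 0.0383), 2.08 (adjusted p = 0.00365) and 2.53 (adjusted p = 0.00131). Without replicate 3 of clone 1.2, TNFRSF21 was still called there (1.74, adjusted p = 0.0256) and PLA2G7 was not (1.21, adjusted p = 0.182). Other called neighbours of ADGRF1 were RUNX2, higher in WM115 clone 1.2 (1.48), and SLC25A27, lower in clone 1.1 (-1.24). For A2M, LINC00987 was called lower in WM115 clones 1.1 and 1.2 (-1.004 and -1.079, the latter -0.93 and not called without replicate 3), RIMKLB in clone 1.1 (-1.82) and AC009533.1 in clone 4.1 (-1.74), and for SLC14A1, SETBP1 was called higher in clones 1.2 and 4.2 (1.16 and 1.03) and KC6 in A375 clone 1.2 (1.35). UGT2B7, 1113 kb from FDCSP, was lower in WM115 clone 1.2 (-1.09, or -0.74 and not called without replicate 3) and higher in clone 4.1 (1.55). MT2P1 near FDCSP was higher in clones 1.1, 1.2 and 4.2 (1.03, 1.36 and 1.14), at a distance of 1850 kb. RUNX2, SETBP1 and MT2P1 were still called in clone 1.2 without replicate 3 (1.35, 1.11 and 1.58).

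**Figure D5:**
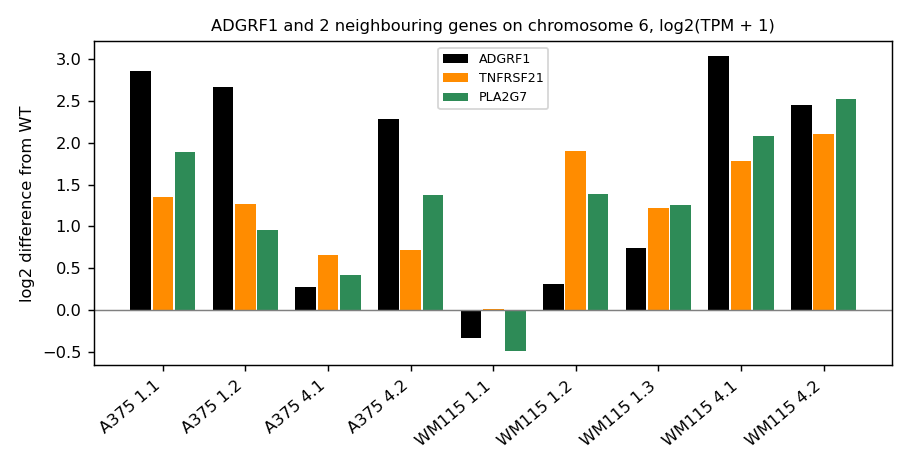
Bars are log2 differences from WT on log2(TPM + 1) in the 9 clones, without error bars, for ADGRF1 (black), TNFRSF21 (orange) and PLA2G7 (green). All 3 bars are above 0 in every clone except WM115 clone 1.1, and ADGRF1 is at 0.31 in WM115 clone 1.2, where TNFRSF21 is at 1.91.

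No list of family genes was tested as a set, and counts called are given beside the share of all tested genes called. Of 31 other adhesion receptors, 16 were tested in A375. In clone 1.1, 1 was lower (ADGRL2, -1.25), beside 0.731% of all genes called. In clone 4.1, 1 was higher (CELSR1, 1.17, a cadherin-type receptor of planar polarity), beside 0.653%. In clones 1.2 (4.01%) and 4.2 (0.473%), 0 were called. In WM115, 13 were tested. With the share of all genes in brackets, 1 was called in clone 1.1 (4.88%) and 2 in clone 1.2 (7.61%). In clone 1.3, 0 were called (0.618%), in clone 4.1, 3 (7.57%), and in clone 4.2, 2 (6.60%). ADGRG1, a receptor for collagen III, was called in 3 of the WM115 clones: WT averaged 324 ± 85.2 TPM (SD, n = 4), against 97.5 ± 63.4 (n = 3) in clone 1.2, 118 ± 8.75 (n = 3) in clone 4.1 and 101 ± 24.1 (n = 3) in clone 4.2. Its log2 differences were -2.00 (limma adjusted p = 0.00531), -1.41 (adjusted p = 0.0262) and -1.66 (adjusted p = 0.0131), and in clone 1.2 without replicate 3 it was -1.25 (adjusted p = 0.0436). ADGRL2 was lower in WM115 clones 1.1 (-1.96) and 4.1 (-1.07), and ADGRE2 higher in clones 1.2 (1.01, or 0.67 and not called without replicate 3) and 4.2 (1.33). The list's median difference lay between -0.40 and 0.03 in the WM115 clones, beside -0.12 to -0.02 for all genes.

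Of 16 genes of urea transport, the urea cycle and aquaporins, 8 were tested in A375 and 7 in WM115. AQP3 was lower in A375 clone 1.2 (-1.25), where 4.01% of all genes were called. For WM115 the shares of all genes called are those given beside the adhesion receptors. AQP1, a water channel, was higher in WM115 clone 1.1 (9.49 ± 2.86 TPM, SD, n = 5, against 0.880 ± 0.537, n = 4; log2 difference 2.47, adjusted p = 2.00e-05) and in clone 4.2 (1.34, adjusted p = 0.0114). ARG2 was lower in clone 1.1 (-1.03) and ASS1, which joins citrulline and aspartate in the urea cycle, higher in clone 1.2 (3.65, adjusted p = 0.000655, or 3.07, adjusted p = 0.00862, without replicate 3). The 15 other genes of FDCSP's cluster of secreted calcium-binding and salivary proteins were all in the table, and 0 passed the filter in either line. Of 11 genes related to A2M, among them complement proteins and the receptor LRP1, 10 were in the table. Of these 5 were tested in A375, with 0 called in each of the 4 clones, beside 0.473% to 4.01% of all genes. In WM115, 7 were tested. C3, named after its values were seen, was lower there in clone 1.1 (-3.73, adjusted p = 0.000265) and higher in clone 4.1 (3.77, adjusted p = 0.000741). Of all genes, 4.88% and 7.57% were called in those clones.

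The genes most like each member, by Pearson's r of log2(TPM + 1) over libraries, differed between the lines. Over the 18 A375 libraries they were DRAP1 (0.92), GPRC5A (0.92) and RUNX1 (0.92) for ADGRF1, LINC00973 (0.84), RPL13AP20 (0.84) and MET (0.84) for SLC14A1, ZNF648 (0.86), THEM4 (0.79) and SDE2 (0.79) for FDCSP, and CEROX1 (0.94), BANCR (0.94) and ITIH5 (0.93) for A2M. Over the 21 WM115 libraries they were ATG16L1 (0.96), ERRFI1 (0.94) and SH3RF3 (0.94) for ADGRF1, THSD4 (0.97), CEMIP (0.92) and SIRPB1 (0.92) for SLC14A1, RHEX (0.99), NKX2-5 (0.98) and PAGE2 (0.98) for FDCSP, and PIM3 (0.94) and PPP6R2 (0.91) for A2M. None of the A375 genes named here is among those named for WM115. The highest r in the other line among the A375 genes was 0.75 for BANCR with A2M. These points share libraries and group means, and r is a description.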

How the data were processed

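RNA-seq libraries of 39 samples were grouped by line and clone from the labels. The authors deposited gene-level and transcript-level TPM tables, made with DRAGEN on GRCh38 per the submitters' processing notes, and the annotation release is not given in the sources used here. The gene table has 60871 lines, 200 of them identical repeats used once, and 6 columns in each table matched no sample and were not used. Each library's deposited TPM sums to 999999.9 to 1000000.1.

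Values were taken as log2(TPM + 1) and each line was fitted separately in limma (version 3.58.1, R version 4.3.3) with 1 coefficient per group and a variance trend. Genes with at least 1 TPM in at least 3 libraries of the line were tested (16692 in A375, 16997 in WM115). Tests were two-sided with Benjamini-Hochberg adjustment over all genes, and a call needed an adjusted p under 0.05 and a log2 difference of at least 1. The script was tested on simulated data. The 4 members and all lists were chosen with earlier results of these data known. Named genes were the members, list genes called the same way in 2 or more clones of a line, the 3 most correlated genes per member and line (1 is not reported here), called genes among the 5 nearest tested on each side, and genes ranking above a member. Calls of 5 or fewer genes outside these rules were named after their values were seen. Replicate numbers pair A375 clone 4.1 with WT, where all 4 same-numbered pairs deviated together (r from 0.33 to 0.78), and no other comparison by this check. Alternatives were a pseudocount of 0.1, no filter, a mean of 5 TPM, median-of-ratios scaling, quantile normalization, no trend, only the 2 groups compared, the replicate block, a mitochondrial share term, and leaving out each library. The mitochondrial term was a high or low label, cut at 2.5% in A375 and 7.5% in WM115. Positions are from GENCODE 29 and promoters from RefSeq.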

Additional observations from a re-analysis of the deposited data

Results flagged for a closer look

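Among 20 pairs of a gene and a group of 4 or 5 libraries, 1 library stood far from the others in 4. The rule used TPM, which is skewed, and A375 WT and clone 4.1 pair by replicate number. The count was therefore not set against chance. For ADGRF1 these were A375 WT replicate 4 (4.80 TPM, next 0.884) and A375 clone 4.1 replicate 4 (6.17 TPM, next 1.27). For A2M it was A375 WT replicate 2 (73.4 TPM, next 13.5), and for FDCSP WM115 WT replicate 3 (0.330 TPM, the others 0).

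Sister clones with the same region deleted differed by test for FDCSP in A375 (clone 4.1 minus 4.2, -2.24) and for SLC14A1 in WM115 (clone 1.1 minus 1.2, -3.17). The FDCSP call in A375 was lost with 4 of 7 left-out libraries and in several alternatives given below, and the SLC14A1 call with none of the left-out libraries. FDCSP in WM115 also differed (clone 4.1 minus 4.2, 5.61), but only these clones brought it past the filter. The opposite direction of FDCSP in R4 clone 4.1 of A375 and of WM115 was not tested.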

How the results depend on the processing

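The A375 counts past a log2 difference of 1 (4, 4, 1 and 2 genes in clones 1.1, 1.2, 4.1 and 4.2) were unchanged in every alternative that was run, and so was the count of 3 called in WM115 clones 4.1 and 4.2, except that a mean of 5 TPM left ADGRF1 untested in WM115 (count 2 in both) and that clone 4.2 gave 2 with the replicate block and without its replicate 1, and 4 with only the 2 groups compared. With a pseudocount of 0.1 the count was 1 in WM115 clone 1.1, 2 in clone 1.1 against 1.2 and 0 in A375 clone 4.1 against 4.2, and the urea list had 8 calls in place of 5. Without a filter it was 0 in WM115 clone 1.3 and 0 in A375 4.1 against 4.2, where quantile normalization also gave 0. With only the 2 groups compared it was 1 in WM115 clones 1.1 and 1.2, 0 in clone 1.3, 0 in A375 4.1 against 4.2 and 2 in WM115 4.1 against 4.2. The mitochondrial term gave 1 in WM115 clone 1.1. With the replicate block it was 1 in WM115 clones 1.1 and 1.2, 0 in clone 1.3 and 0 in A375 4.1 against 4.2. In WM115 clone 4.2 the block left ADGRF1 at adjusted p = 0.0662 and FDCSP at 0.0719 and brought A2M to 0.0236. For A375 clone 4.1 against WT, where the numbers pair, the block left the count at 1. The main counts of the WM115 R4 clones include FDCSP, which only those clones brought past the filter.

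Leaving out 1 library at a time, the count ranged from 0 to 1 in WM115 clone 1.1, from 1 to 2 in clone 1.2, from 0 to 1 in clone 1.3, from 0 to 3 in A375 4.1 against 4.2 and from 1 to 2 in WM115 1.1 against 1.2. No called value changed sign. Among uncalled differences, leaving out a library changed the sign of ADGRF1 (-0.22 to 0.76) and A2M (-0.97 to 0.56) in A375 clone 4.1, FDCSP (-0.53 to 0.58) in A375 clone 4.2, A2M (-1.42 to 0.18) and FDCSP (-0.10 to 0.07) in WM115 clone 1.3, and SLC14A1 (-0.17 to 0.46) in A375 4.1 against 4.2. The cause of these changes was not tested. Depth is unknown, so values under about 1 TPM have unknown precision.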
